A study of Homo sapiens with 15 samples.

Results

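Glycolysis converts glucose to pyruvate in a chain of cytosolic enzymes, and lactate dehydrogenase then turns pyruvate into lactate. Many of its enzymes exist as isoenzymes from separate genes that are expressed in different tissues, and tumour cells commonly express the genes of this pathway at a high level. Several of these genes are textbook targets of hypoxia-inducible factors, which bind a short core element in promoters, and of E-box factors such as MYC. The 10 genes described here were chosen by gene symbol, with earlier results of these data known. They follow the order of the pathway, namely HK2, GPI, PFKL, PFKP, ALDOA, ALDOC, PGK1, ENO1, PKM and LDHA. All 10 were found among the 60107 genes listed, and all 10 passed the filter on low reads that kept 10495 genes for testing.

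Expression was measured by RNA-seq in MIA PaCa-2 cells, an established human pancreatic carcinoma line, in 5 groups of 3 libraries. The groups were treated with vehicle (Ctrl) or, at 5 µM for 24 h, with Lys05, BAQ12, BAQ13 or BAQ12O, the last of which the series text calls 12O and the paper does not name. Lys05 is a bisaminoquinoline that accumulates in lysosomes and blocks autophagy. BAQ12 and BAQ13 carry the same kind of head with a long hydrophobic tail, differ from each other by a single methylene unit, and assemble into nanoparticles in water. All libraries came from 1 cell line, and since the labels do not say whether the replicates were separate cultures, the p-values measure only the spread between these libraries. In bulk RNA, fewer cells of a kind and less RNA per cell cannot be told apart.

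The values are normalised read counts, which are the reads of a gene scaled by 1 size factor per library. Between 1586566 and 2500551 reads per library fell on genes, and 3 reads correspond to a normalised count of 2.49 to 4.14. The 10 genes together took 0.337% to 0.388% of these reads. The labels name a 3′-end kit and the paper a stranded whole-transcript kit, so levels were not compared between genes. Of the 5 epithelial markers, KRT8, KRT18 and KRT19 were present, CDH1 had reads in every group, and EPCAM was at 0 in 4 of the 5 groups. Only 3 of these 5 markers passed the filter on low reads. The 5 summed to normalised counts of 1362 to 1795 per library. VIM and ZEB1 summed to 9382 to 10933, 5 fibroblast markers to 174 to 289 with DCN and PDGFRB at 0, 4 immune markers to 1.06 to 11.4, and 3 endothelial markers to 23.9 to 75.3, nearly all from CDH5. The 4 pancreatic acinar and islet markers were at 0 in 4 groups and reached 1.38 in the BAQ12O group. KRT8 was lower than in Ctrl with BAQ12, BAQ13 and BAQ12O (log2 difference -0.58, -0.85 and -0.60, adjusted p = 0.0061, 3.8e-05 and 0.0044 by limma). KRT18 was lower with BAQ13 and BAQ12O (-0.50 and -0.43, adjusted p = 0.0026 and 0.025), and COL1A2, a fibrillar collagen chain among the fibroblast markers, with BAQ12 and BAQ13 (-0.56 and -0.54, adjusted p = 0.011 and 0.0043). The part of these markers in the results below was not tested.

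Replicate 3 of BAQ12 and, to a lesser degree, replicate 1 of BAQ13 stood apart from the libraries that share their labels. Per gene, the chi-square between replicate 3 and the other BAQ12 libraries was 11.4 and 13.6, and that between replicate 1 and the other BAQ13 libraries was 3.41 and 6.23, whereas the remaining pairs of the same group gave 1.06 to 1.77. Over 10449 genes, the deviation of a library correlated with the GC content of the transcript at r = 0.278 in replicate 3 of BAQ12 and at 0.250 in replicate 1 of BAQ13, where the other 13 libraries had r between -0.176 and 0.139.

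The promoters of ALDOC and LDHA are shown because these were the only members whose expression passed the test against Ctrl. The 250 bases before the RefSeq transcription start (GRCh38.p14) are printed 5′ to 3′ on the strand of the gene, for ALDOC from chr17:28576896-28577145 on the minus strand and for LDHA from chr11:18394313-18394562 on the plus strand. RefSeq gives LDHA a further start downstream, and the more upstream is printed; the 250 bases before the other (chr11:18396101-18396350) held 0 matches to ACGTG and 1 to GCGTG. Capitals mark, on either strand, the core hypoxia response element (ACGTG or GCGTG) and, in ALDOC, the letters TCACNCCAC of a sterol regulatory element.
ALDOC: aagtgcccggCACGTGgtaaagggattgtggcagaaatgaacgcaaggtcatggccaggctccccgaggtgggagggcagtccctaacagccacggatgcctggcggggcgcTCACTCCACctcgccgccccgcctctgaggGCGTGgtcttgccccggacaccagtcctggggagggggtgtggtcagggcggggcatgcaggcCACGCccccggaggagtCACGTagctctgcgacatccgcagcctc
LDHA: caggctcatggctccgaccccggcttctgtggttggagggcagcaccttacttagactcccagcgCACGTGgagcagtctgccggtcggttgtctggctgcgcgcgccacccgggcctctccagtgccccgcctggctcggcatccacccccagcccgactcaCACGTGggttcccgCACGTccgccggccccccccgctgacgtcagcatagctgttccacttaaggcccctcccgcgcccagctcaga

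The printed stretch of ALDOC held 3 matches to ACGTG and 2 to GCGTG, and that of LDHA 5 and 0. The palindromic E-box CACGTG holds ACGTG on both strands, so that each of its occurrences, 1 in ALDOC and 2 in LDHA, counts as 2 of those matches. RefSeq gives 17 promoter windows of 300 bases, from 250 before to 50 after a start, for the 10 genes. ACGTG was found in 10 of the 17 windows, GCGTG in 10 and CACGTG in 4 (1 each of HK2, ALDOA, ALDOC and LDHA), and these motifs occurred in 21.4%, 36.5% and 7.3% of 35116 windows of that length. The letters TCACNCCAC, a motif searched after the values were seen, were in 1 of the 17 windows, at position -138 from the start of ALDOC, and in 1.1% of all windows. These matches are letters in a window and were not tested for binding.

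ALDOC, the aldolase isoenzyme known from brain, was higher than in Ctrl with BAQ12, BAQ13 and BAQ12O. It splits fructose bisphosphate into the triose phosphates, as does ALDOA, the isoenzyme of muscle and of most proliferating cells. The gene (ENSG00000109107, chromosome 17, 28573115 to 28577264 on the minus strand, GRCh38) was weakly expressed in Ctrl, at normalised counts of 10.8, 12.3 and 8.26 from 9 to 13 reads. With Lys05 its values were 25.6, 12.5 and 14.9, and with BAQ12 they were 25.7, 34.9 and 46.5. With BAQ12O they were 32.3, 21.9 and 38.6, and with BAQ13 they were 74.7, 85.7 and 62.0. Every library of every treated group lay above every Ctrl library, and every BAQ13 library lay above all other libraries.

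The mean of ALDOC was 10.4 ± 2.03 in Ctrl and 74.1 ± 11.8 with BAQ13 (SD, n = 3 each), a ratio of means of 7.10. On the scale of log2(normalised count + 1), on which the change of weakly expressed genes is understated, the difference was 2.72 (standard error 0.28, 95% confidence interval 2.12 to 3.32, adjusted p = 6.2e-06 by limma). With BAQ12 the mean was 35.7 ± 10.4 (SD, n = 3), a difference of 1.66 (1.06 to 2.25, adjusted p = 0.0043). With BAQ12O it was 31.0 ± 8.42 (SD, n = 3), a difference of 1.46 (0.86 to 2.06, adjusted p = 0.011). With Lys05 it was 17.7 ± 6.94 (SD, n = 3), and the difference of 0.66 (0.06 to 1.26) did not pass the test (adjusted p = 0.93). The 4 comparisons share the same 3 Ctrl libraries.

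The call of ALDOC with BAQ13 was past the threshold in all 27 other settings in which the gene could be tested, and that with BAQ12 in 26 of 27, the exception being a fit of only the 6 libraries compared (adjusted p = 0.084). Without replicate 3 of BAQ12 and replicate 1 of BAQ13 the differences were 1.45 for BAQ12 and 2.71 for BAQ13. With BAQ12O the call was lost without replicate 3 of Ctrl (adjusted p = 0.080), without replicate 1 of BAQ12O (0.056) and without replicate 3 of BAQ12O (0.086). ALDOC was left out by a filter of at least 10 reads in every library, because replicate 3 of Ctrl had 9.

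**Figure D1:**
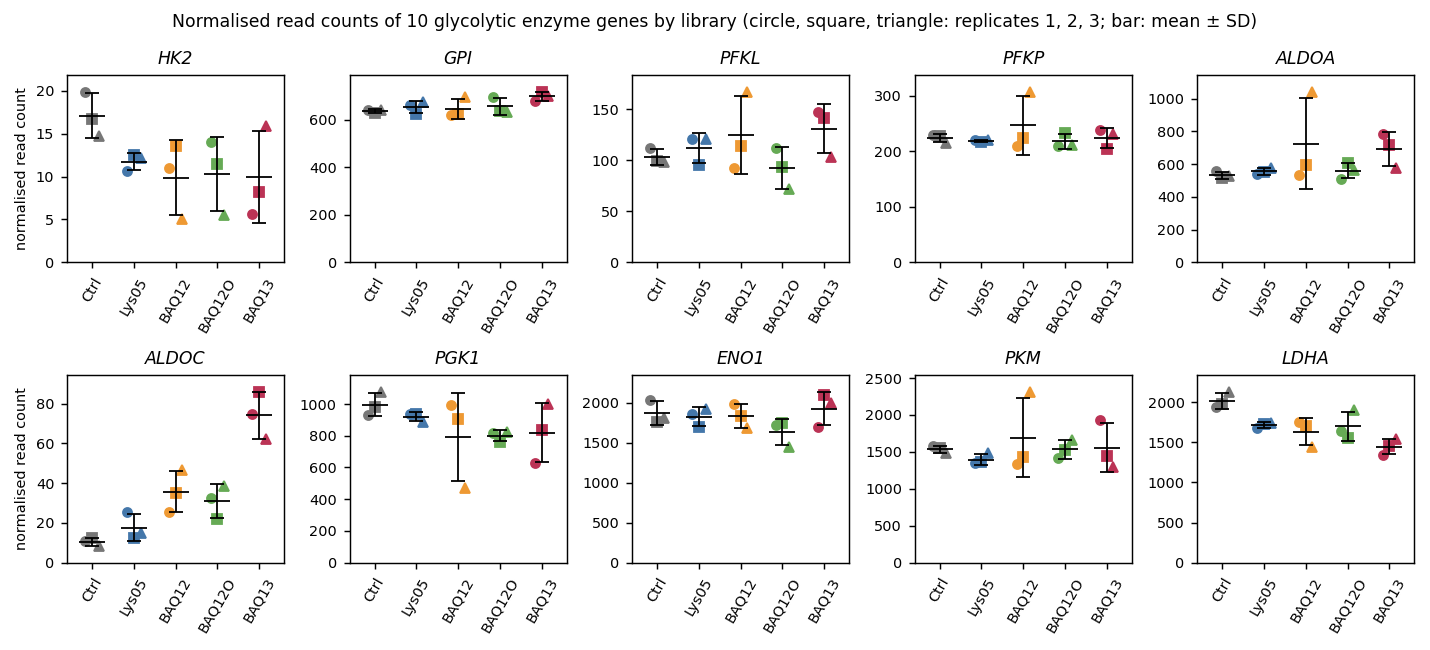
Normalised read count (vertical axis, linear from 0) of each of the 10 genes in each library, by group, with circles, squares and triangles for replicates 1, 2 and 3 and bars for the mean ± SD of 3 libraries. The ALDOC values of BAQ13, at 62.0 to 85.7, lie above all other ALDOC values, and the triangle of BAQ12 lies apart from the other BAQ12 libraries for ALDOA, PGK1 and PKM.

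LDHA, which converts pyruvate to lactate, was the other member to pass the test, and it fell with BAQ13. LDHA (ENSG00000134333, chromosome 11, 18394388 to 18408425 on the plus strand, GRCh38) had normalised counts of 1937, 1978 and 2131 in Ctrl and of 1346, 1456 and 1540 with BAQ13. The values were 1677, 1735 and 1737 with Lys05, 1758, 1708 and 1441 with BAQ12, and 1642, 1554 and 1903 with BAQ12O. All 12 treated libraries lay below all 3 Ctrl libraries. The mean fell from 2015 ± 102 to 1447 ± 97.3 with BAQ13 (SD, n = 3 each), or to 71.8% of Ctrl.

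For BAQ13 the log2 difference of LDHA was -0.48 (standard error 0.09, 95% confidence interval -0.67 to -0.29, adjusted p = 0.0029 by limma), and it was past the threshold in all 28 other settings. With Lys05, BAQ12 and BAQ12O the differences were -0.23, -0.31 and -0.25, which did not pass (adjusted p = 0.83, 0.16 and 0.22). When replicate 3 of BAQ12 was left out, LDHA also passed with BAQ12O (adjusted p = 0.031). Without replicate 1 of BAQ13 as well, it passed with Lys05 (0.026) and BAQ12O (0.0022). With only the 6 libraries compared, it passed with Lys05 (0.000707) and BAQ12O (0.00505). The differences with Lys05 and BAQ12O were the same in these fits. Each gene has 1 estimate of spread over all libraries in a fit, so libraries outside both groups bear on the adjusted p only. The GC content of the LDHA transcript is 44.0%, and replicate 1 of BAQ13 had the lowest of the 15 values. Without that library the difference with BAQ13 was -0.43 (adjusted p = 0.019 by limma).

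Against Ctrl, members past an adjusted p of 0.05 by limma numbered 0 of 10 with Lys05, 1 with BAQ12 (ALDOC), 2 with BAQ13 (ALDOC higher, LDHA lower) and 1 with BAQ12O (ALDOC). Of the 10495 genes tested, 0.238% were called with Lys05, 0.981% with BAQ12, 5.77% with BAQ13 and 1.48% with BAQ12O. Because the members were chosen with earlier results of these data known, these shares stand beside the counts only as a description. With Lys05, 2 members had an unadjusted p under 0.05, where 523 of the 10495 genes tested did, and edgeR and DESeq2 called 0 members. The median log2 difference of the 10 genes was -0.03 with Lys05, 0.06 with BAQ12, 0.02 with BAQ13 and -0.11 with BAQ12O, where that of all genes tested was 0.00184, -0.00142, -0.00421 and -0.00379. The members thus fell on both sides of 0 in every comparison, with 4, 6, 6 and 3 of 10 above it for Lys05, BAQ12, BAQ13 and BAQ12O.

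**Figure D2:**
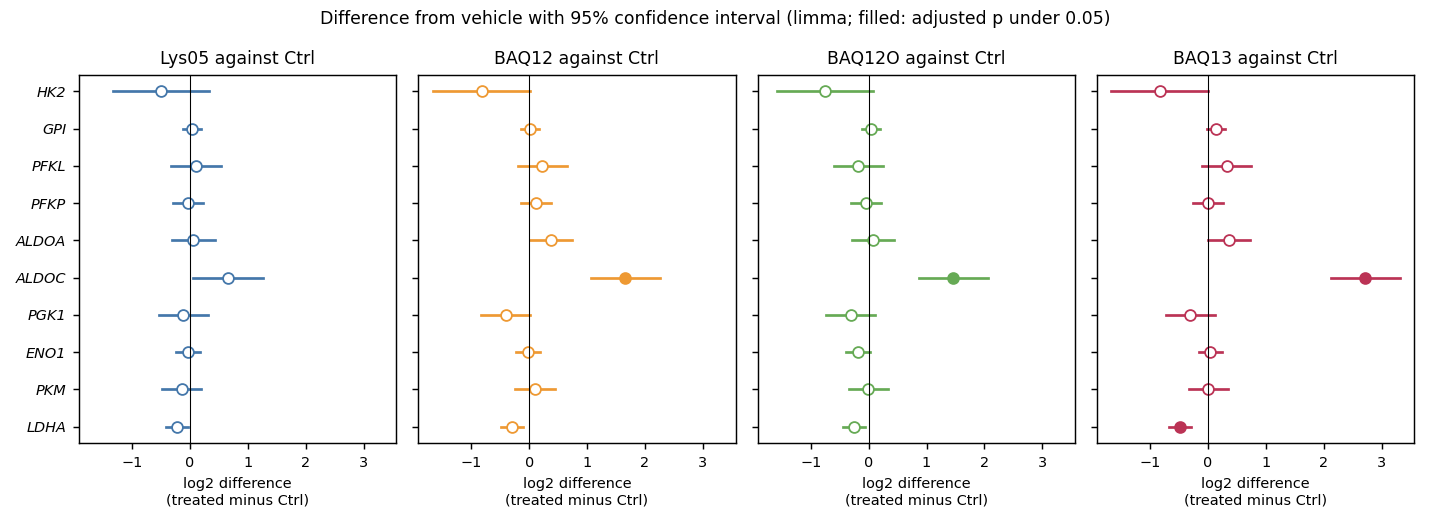
Log2 difference from Ctrl (horizontal axis) of each member in the 4 treatments, with the 95% confidence interval from limma as a bar. Filled circles have an adjusted p under 0.05, which holds for ALDOC with BAQ12, BAQ12O and BAQ13 (1.66, 1.46 and 2.72) and for LDHA with BAQ13 (-0.48).

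HK2, a hexokinase that phosphorylates glucose at the entry of the pathway, rested on 4 to 24 reads per library. It had normalised counts of 19.9, 16.7 and 14.7 in Ctrl and of 10.6, 12.5 and 12.1 with Lys05. With BAQ12 it had 11.01, 13.6 and 5.02, with BAQ12O 14.01, 11.4 and 5.51, and with BAQ13 5.60, 8.20 and 15.9. The Ctrl libraries lay above all treated libraries except replicate 3 of BAQ13. The differences of -0.50, -0.82, -0.75 and -0.83 with Lys05, BAQ12, BAQ12O and BAQ13 did not pass the test (adjusted p = 0.999, 0.43, 0.45 and 0.26 by limma), and their intervals reached from -1.67 to 0.34. The difference of HK2 with BAQ12 was -0.44 without replicate 3 of BAQ12, and without replicate 1 of BAQ13 that with BAQ13 was -0.53. Leaving out each library moved the difference with BAQ12O between -0.999 and -0.40, that with BAQ12 between -1.08 and -0.44, and that with BAQ13 between -1.21 and -0.53.

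GPI, which isomerises glucose phosphate to fructose phosphate, varied least among the members. Its mean was 636 ± 7.44 in Ctrl (SD, n = 3), and its 15 values ran from 618 to 716. The difference was largest with BAQ13, where the values of 677, 716 and 699 lay above those of Ctrl, at 0.13 (95% confidence interval -0.02 to 0.29, adjusted p = 0.35 by limma).

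The phosphofructokinase subunits PFKL (liver type) and PFKP (platelet type), which commit the sugar to glycolysis, did not pass the test in any of the 4 treatments. PFKL had 112, 99.4 and 98.2 in Ctrl and 147, 141 and 103 with BAQ13, groups that overlap, and a difference of 0.32 (-0.10 to 0.75, adjusted p = 0.42). PFKP had a mean of 224 ± 7.68 in Ctrl and 225 ± 18.1 with BAQ13 (SD, n = 3 each), with a difference of -0.00255 (-0.26 to 0.25). With BAQ12, replicate 3 had 167 for PFKL and 308 for PFKP, above all other 14 libraries.

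ALDOA, with means of 532 ± 20.9 in Ctrl and 691 ± 105 with BAQ13 (SD, n = 3 each), had a difference of 0.37 with BAQ13 (-0.0016 to 0.73, adjusted p = 0.26 by limma). Its values with BAQ13 were 783, 715 and 577, above 556, 517 and 524 in Ctrl. The call with BAQ13 depended on the libraries in the fit, as the adjusted p was 0.0052 without replicate 3 of BAQ12, 0.033 with only the 6 libraries compared and 0.019 without replicate 3 of BAQ12 and replicate 1 of BAQ13 together, where the difference was 0.27. With BAQ12 the values were 536, 595 and 1043, and the difference of 0.38 (adjusted p = 0.42) was 0.08 without replicate 3.

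The reads of ALDOC and ALDOA were also set against each other within each library, and this ratio was compared between groups. Its size was not read as a ratio of levels, since labels and paper name different kits. For every 1000 reads of ALDOA there were 15.8 to 23.8 reads of ALDOC in Ctrl, 22.6 to 47.6 with Lys05, 44.6 to 58.6 with BAQ12, 36.3 to 68.1 with BAQ12O and 95.4 to 120 with BAQ13. The log2 ratio of ALDOC to ALDOA, computed from normalised counts with 1 added to each, was -5.56 ± 0.27 in Ctrl (SD, n = 3) and higher by 1.28, 2.35 and 1.39 with BAQ12, BAQ13 and BAQ12O, for which the groups did not overlap with Ctrl. The exact two-sided permutation test gave p = 0.10 for each, the smallest p that 3 against 3 libraries allow. With 5 added in place of 1, the ratio was higher by 0.996 with BAQ12 and 1.991 with BAQ13. For Lys05 the difference was 0.60 (exact permutation p = 0.20). In replicate 3 of BAQ12, where both aldolases were high, the ratio of 44.6 was the lowest of its group.

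**Figure D3:**
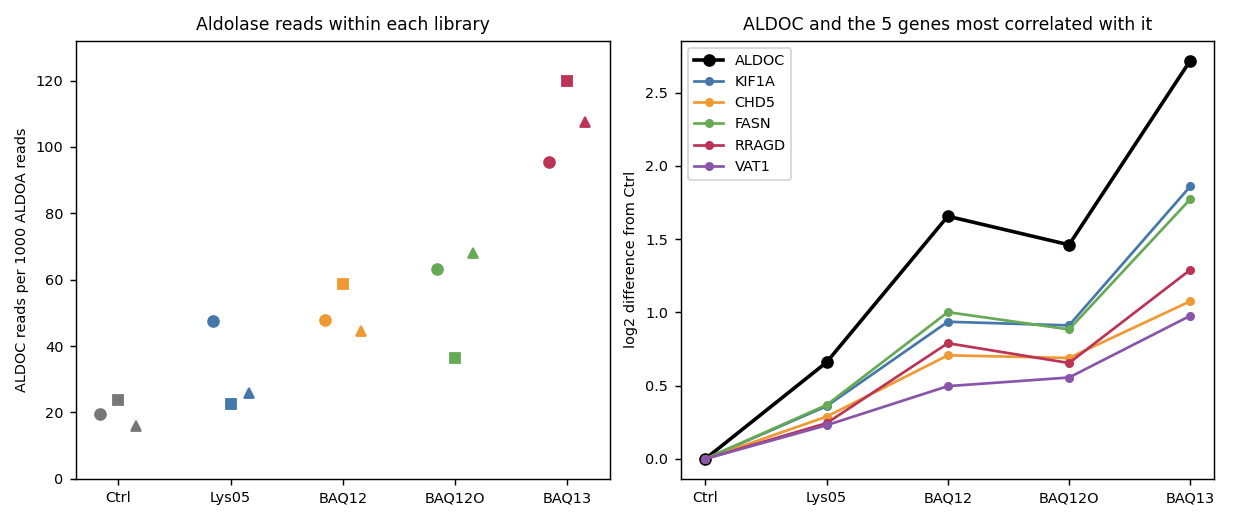
Left, ALDOC reads per 1000 ALDOA reads in each library, by group, with circles, squares and triangles for replicates 1, 2 and 3. Right, mean log2 difference from Ctrl of ALDOC and of the 5 genes most correlated with it over the 15 libraries, without error bars. The ratio reaches 95.4 to 120 with BAQ13. Each of the 6 genes is highest there, which for the 5 was built into their choice by correlation with ALDOC.

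PGK1, which forms ATP in the lower pathway, had values of 932, 983 and 1077 in Ctrl and 820, 760 and 824 with BAQ12O, which did not overlap. Its difference with BAQ12O was -0.31 (-0.74 to 0.11, adjusted p = 0.55 by limma). That same difference passed with only the 6 libraries compared (adjusted p = 0.000676). With BAQ12 the values were 993, 904 and 474, so that replicate 3 moved the difference from -0.07 to -0.40. With BAQ13 they were 627, 834 and 1000, with a difference of -0.30 (adjusted p = 0.45), which passed without replicate 3 of BAQ12 (0.041) and was -0.12 without replicate 1 of BAQ13 (adjusted p = 0.86).

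ENO1, the widespread enolase, had means of 1870 ± 148 in Ctrl and 1929 ± 208 with BAQ13 (SD, n = 3 each). It was lower with BAQ12O, at 1718, 1750 and 1453 against 2040, 1765 and 1805, which gave -0.19 (-0.40 to 0.02, adjusted p = 0.43 by limma) and an adjusted p of 0.047 with only the 6 libraries compared. PKM, the pyruvate kinase that makes the end product of glycolysis, had 1535 ± 49.5 in Ctrl and 1559 ± 327 with BAQ13 (SD, n = 3 each). Its differences from Ctrl were between -0.14 and 0.10 in the 4 treatments and did not pass (adjusted p of at least 0.81).

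**Figure D4:**
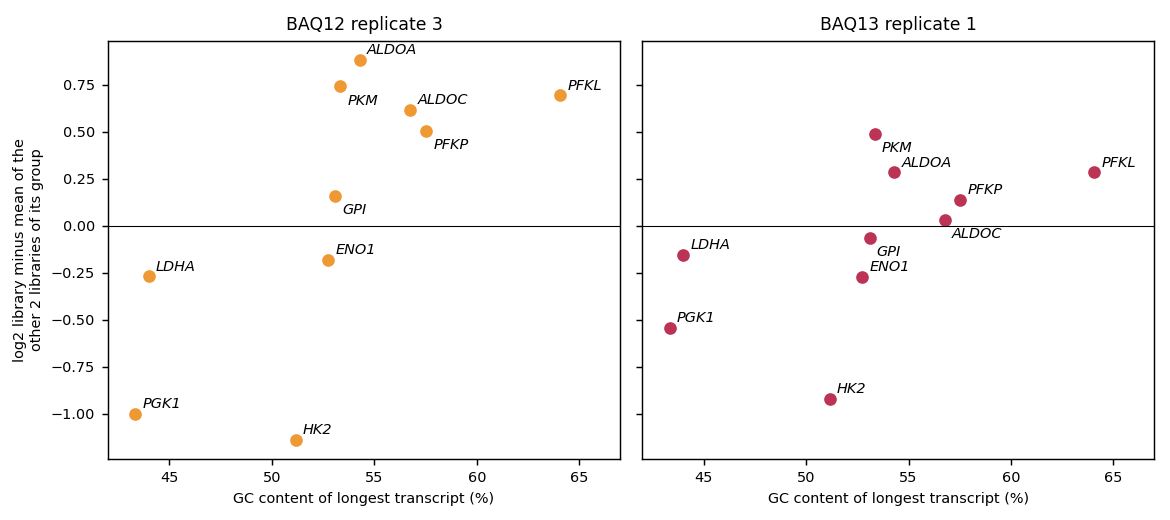
Log2 difference between the library named above each panel and the mean of the other 2 libraries of its group (vertical axis), against the GC content of the longest annotated transcript (horizontal axis, %), for the 10 members. In replicate 3 of BAQ12, PGK1 (43.3% GC) was lower by 1.00 and PFKL (64.1% GC) higher by 0.70, and HK2 (51.2% GC) was the lowest.

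Of the members, 6 had in replicate 3 of BAQ12 a value outside the range of the other 14 libraries, namely HK2 and PGK1 below it and PFKL, PFKP, ALDOA and PKM above it. PKM was at 2312 there against 1341 and 1426 in the other BAQ12 libraries. ALDOC, at 46.5, was the highest of the BAQ12 group and below every BAQ13 library. In replicate 1 of BAQ13 only LDHA was outside the range of the other libraries.

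The compounds were also compared with each other at the same dose and time, in 6 pairs. Between BAQ13 and BAQ12, which differ by a methylene unit, 0 of 10 members passed an adjusted p of 0.05 by limma, where 0.562% of all genes tested did. At an unadjusted p under 0.05 there were 1 member (ALDOC) and 868 of the 10495 genes tested. ALDOC was higher with BAQ13 by 1.06 (95% confidence interval 0.46 to 1.66, adjusted p = 0.14), and the groups did not overlap. It passed by edgeR (adjusted p = 0.032), by DESeq2 (0.023), without replicate 3 of BAQ12 (0.011) and without that library and replicate 1 of BAQ13 (0.014), and in no other setting. For the other 9 members the differences were between -0.17 and 0.11, and the widest 95% interval, that of HK2, reached 0.84 to either side of its difference.

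Between BAQ13 and Lys05, 1 member passed (2.66% of all genes tested), as ALDOC was higher with BAQ13 by 2.06 (1.46 to 2.66, adjusted p = 0.00025). LDHA had a difference of -0.25 (adjusted p = 0.18) and ALDOA one of 0.30 (adjusted p = 0.47). Without replicate 3 of BAQ12 both were also called, in a fit that called 811 of all 10657 genes tested, against 279 of 10495 with all libraries. Between BAQ12 and Lys05, 0 members passed by limma, edgeR or DESeq2 (0.162% of all genes tested), and 1 had an unadjusted p under 0.05 (752 of the 10495 genes tested). The difference of ALDOC was 1.00 (0.40 to 1.59, adjusted p = 0.31).

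Between BAQ12O and BAQ12, 0 of the 10 genes passed by limma, edgeR or DESeq2, where 0.229% of all genes tested were called. At an unadjusted p under 0.05 there were 0 members and 879 of the 10495 genes tested. The difference of ALDOC was -0.195 with a 95% interval from -0.79 to 0.40. Between BAQ12O and BAQ13, 1 member passed (1.39% of all genes tested), with ALDOC lower in BAQ12O by limma (log2 difference -1.26, -1.85 to -0.66, adjusted p = 0.034). This call was lost without replicate 1 of Ctrl (adjusted p = 0.050), replicate 1, 2 or 3 of BAQ13 (0.10, 0.18 and 0.058) or replicate 1 or 2 of BAQ12O (0.094 and 0.20). Between BAQ12O and Lys05, 0 members passed by the same 3 tools (0.248% of all genes tested), with 1 at an unadjusted p under 0.05 (772 of the 10495 genes tested). ALDOC differed by 0.80 (0.20 to 1.40, adjusted p = 0.49).

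By the mean of ALDOC, the groups stood in the order Ctrl, Lys05, BAQ12O, BAQ12 and BAQ13, from low to high. Of the neighbours in this order, Lys05 with BAQ12O and BAQ12O with BAQ12 overlapped, whereas Ctrl with Lys05 and BAQ12 with BAQ13 did not, and none of the 4 pairs passed the adjusted threshold by limma. ALDOC was higher with BAQ12O than with BAQ12 by 0.011 without replicate 3 of BAQ12, so that the order of these groups turned. LDHA was highest in Ctrl and lowest with BAQ13, and the other groups had no stable order, since its difference from Ctrl with BAQ12 was -0.31 with replicate 3 and -0.22 without it, against -0.23 with Lys05 and -0.25 with BAQ12O. As a description over the 15 libraries, LDHA correlated with ALDOC at r = -0.82, HK2 at -0.62, PGK1 at -0.51, GPI at 0.64 and ALDOA at 0.58. These points share groups and libraries, and replicate 3 of BAQ12 is among them.

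The 5 tested genes with the highest Pearson correlation with ALDOC over the 15 libraries were KIF1A (r = 0.957), CHD5 and FASN (0.948 each), RRAGD (0.947) and VAT1 (0.941). KIF1A is a kinesin motor, CHD5 a chromatin remodeller, FASN the fatty acid synthase and RRAGD a Rag GTPase of lysosomal nutrient signalling. FASN had normalised counts of 499 ± 5.97 in Ctrl, 645 ± 34.2 with Lys05, 1003 ± 106 with BAQ12, 921 ± 16.6 with BAQ12O and 1708 ± 80.3 with BAQ13 (SD, n = 3 each). KIF1A went from 21.8 ± 2.38 in Ctrl to 82.3 ± 12.8 with BAQ13 (SD, n = 3 each). No other member of the 10 was among these 5 genes. Since the 5 were picked by correlation with ALDOC, their likeness to it was built into the choice.

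The rest of the pathway was described from lists compiled by function, with earlier results of these data known. Their counts stand beside the 0.238%, 0.981%, 5.77% and 1.48% of all genes called with Lys05, BAQ12, BAQ13 and BAQ12O. Counts at an unadjusted p under 0.05 stand beside 523, 1239, 2041 and 1339 of the 10495 genes tested. Of 18 further glycolytic enzyme genes, 6 could be tested, and 2 of them rose with BAQ13 and 1 with BAQ12O. ENO2, the enolase known from neurons, had 78.9, 51.4 and 66.1 in Ctrl, 123, 120 and 134 with BAQ13 and 120, 116 and 116 with BAQ12O. Both treated groups lay above Ctrl, with log2 differences of 0.95 (adjusted p = 0.00083 by limma) and 0.85 (0.0073, and 0.054 without replicate 2 of Ctrl). HKDC1, a hexokinase domain protein, rose by 0.78 with BAQ13 (adjusted p = 0.035), which did not hold by DESeq2 or in any of the 6 fits that left out a BAQ13 or Ctrl library (adjusted p of up to 0.13).

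With Lys05 and BAQ12, 0 of those 6 genes passed by limma, edgeR or DESeq2, with 1 and 2 at an unadjusted p under 0.05. Without replicate 3 of BAQ12 and replicate 1 of BAQ13, 7 could be tested, and 1, 1, 2 and 3 rose with Lys05, BAQ12, BAQ13 and BAQ12O. In that fit, 96, 222, 1252 and 970 of all 10628 genes tested were called with these treatments. The counts of the lists below without both libraries stand beside these. LDHB, the other main lactate dehydrogenase subunit, was listed at 0 in every library, and PGAM1 had 1 to 10 reads. Pseudogenes were looked up for the members only. Whether reads of LDHB or PGAM1 were lost to similar sequences was not tested.

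Among 10 tested genes of glucose and lactate transport, 2 rose with BAQ13 and 1 with BAQ12O, and 0 passed with Lys05 and BAQ12 by any of the 3 tools, with 2 at an unadjusted p under 0.05 in each. SLC2A6, a facilitative hexose transporter known from lysosomal membranes, had 29.1, 22.3 and 18.4 in Ctrl and 105, 101 and 118 with BAQ13. The log2 difference was 2.19 (95% confidence interval 1.75 to 2.63, adjusted p = 2.0e-06 by limma). With BAQ12 and BAQ12O its means were 35.6 ± 5.79 and 37.0 ± 6.77 (SD, n = 3 each), which did not pass (adjusted p = 0.26 and 0.15). SLC2A3, a high-affinity glucose transporter, rose by 0.94 with BAQ13 (adjusted p = 0.0081) and by 1.0995 with BAQ12O (0.0073). Both calls were lost without replicate 3 of Ctrl (0.053 and 0.054). When the libraries that stood apart were left out, SLC2A3 also rose with BAQ12, and SLC2A6 also rose with BAQ12O.

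Of 16 tested regulators of glycolytic flux, 1 rose with BAQ12 and 3 with BAQ13 by limma. With Lys05 and BAQ12O, 0 passed by limma, edgeR or DESeq2, with 0 and 3 at an unadjusted p under 0.05. When the libraries that stood apart were left out, 1 rose with BAQ12, 3 with BAQ13 and 2 with BAQ12O. PFKFB2, whose product makes the sugar bisphosphate that activates phosphofructokinase, had 23.2, 35.7 and 23.9 in Ctrl, 62.4, 62.9 and 74.1 with BAQ12 and 83.1, 72.9 and 85.5 with BAQ13. Both treated groups lay above Ctrl and overlapped with each other, with differences from Ctrl of 1.26 (adjusted p = 0.00055) and 1.53 (2.1e-05). PDP2 and PDP1, phosphatases that activate pyruvate dehydrogenase, rose with BAQ13 by 0.93 and 0.39 (adjusted p = 0.0067 and 0.029), PDP2 without replicate 1 of BAQ13 having 0.052 and PDP1 being lost by DESeq2 (adjusted p = 0.083) and without replicate 1 or 2 of BAQ13 or any Ctrl library (up to 0.12).

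In the pentose phosphate pathway, which branches from glycolysis, 2 of 10 tested genes rose with BAQ13 by limma and DESeq2, and edgeR called 4. Without the libraries that stood apart, 2 rose and 3 fell with BAQ13. PGD, an oxidative enzyme of that pathway, went from 44.0 ± 5.29 to 101 ± 9.13 (SD, n = 3 each), a difference of 1.19 (adjusted p = 3.7e-05), and TKT, transketolase, rose by 0.41 (adjusted p = 0.044, past the threshold in 4 of 15 fits that left out a library, those without a BAQ12 library or replicate 3 of BAQ13, and at up to 0.21 in the others). With Lys05, BAQ12 and BAQ12O, 0 passed by the 3 tools, with 1, 3 and 2 at an unadjusted p under 0.05. When the libraries that stood apart were left out, PGD and TKT also rose with BAQ12O, and 0 passed with Lys05 and BAQ12. In gluconeogenesis and glycogen metabolism 0 of 12 tested genes passed in any of the 4 treatments by the 3 tools, with 1 at an unadjusted p under 0.05 with Lys05 and 0 in the others. Without the libraries that stood apart, 1 of the 12 rose and 2 fell with BAQ13.

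Of 17 tested genes known as hypoxia-inducible outside glycolysis, MXI1, an antagonist of MYC, rose with BAQ13 (0.62, adjusted p = 0.019 by limma, 0 genes by DESeq2), which was lost without replicate 1 or 2 of BAQ13 or replicate 2 or 3 of Ctrl (adjusted p of up to 0.092). With BAQ13, edgeR called 2 of the 17. With Lys05, BAQ12 and BAQ12O 0 passed by the 3 tools, with 3, 3 and 4 at an unadjusted p under 0.05. Without the libraries that stood apart, 3 rose with BAQ13, 1 rose and 2 fell with BAQ12O, and 0 passed with Lys05 and BAQ12. The medians of these 17 genes were -0.04, -0.02, 0.03 and 0.03 with Lys05, BAQ12, BAQ13 and BAQ12O. Of 6 tested subunits and regulators of the hypoxia-inducible factors, 0 passed by limma in the 4 treatments (0, 1, 1 and 0 at an unadjusted p under 0.05). By edgeR 1 was called, EGLN2 with BAQ13, which by limma also rose without the libraries that stood apart.

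Of 8 tested genes of iron uptake and storage, HMOX1, the heme oxygenase, and FTL, the ferritin light chain, rose with BAQ13 by 1.84 and 0.60 (adjusted p = 0.00042 and 0.012), and TFRC, the transferrin receptor, fell by 0.65 on the log2 scale with BAQ12O (adjusted p = 0.0090). With Lys05 and BAQ12, 0 of the 8 passed by limma or edgeR (0 and 2 at an unadjusted p under 0.05), and DESeq2 called HMOX1 with BAQ12. FTL was not past the threshold without replicate 1 of BAQ13 or without replicate 3 of Ctrl, and TFRC not without replicate 3 of BAQ12O or of Ctrl, with adjusted p of up to 0.069 and 0.076. When both libraries that stood apart were left out, 2 of the 8 rose with BAQ12. In that fit, 4 rose and 1 fell with BAQ13, and 2 rose and 1 fell with BAQ12O. Over all 95 tested genes of these lists, members included, 0 passed with Lys05, 2 with BAQ12, 14 with BAQ13 and 4 with BAQ12O, where 0.238%, 0.981%, 5.77% and 1.48% of all genes tested were called. With Lys05, 10 of the 95 had an unadjusted p under 0.05, where 523 of the 10495 genes tested did, and edgeR and DESeq2 called 0 of the 95. Without replicate 3 of BAQ12 and replicate 1 of BAQ13, 1 rose and 1 fell with Lys05, 6 rose with BAQ12, 20 rose and 7 fell with BAQ13, and 13 rose and 6 fell with BAQ12O, where 96, 222, 1252 and 970 of all 10628 genes tested were called.

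**Figure D5:**
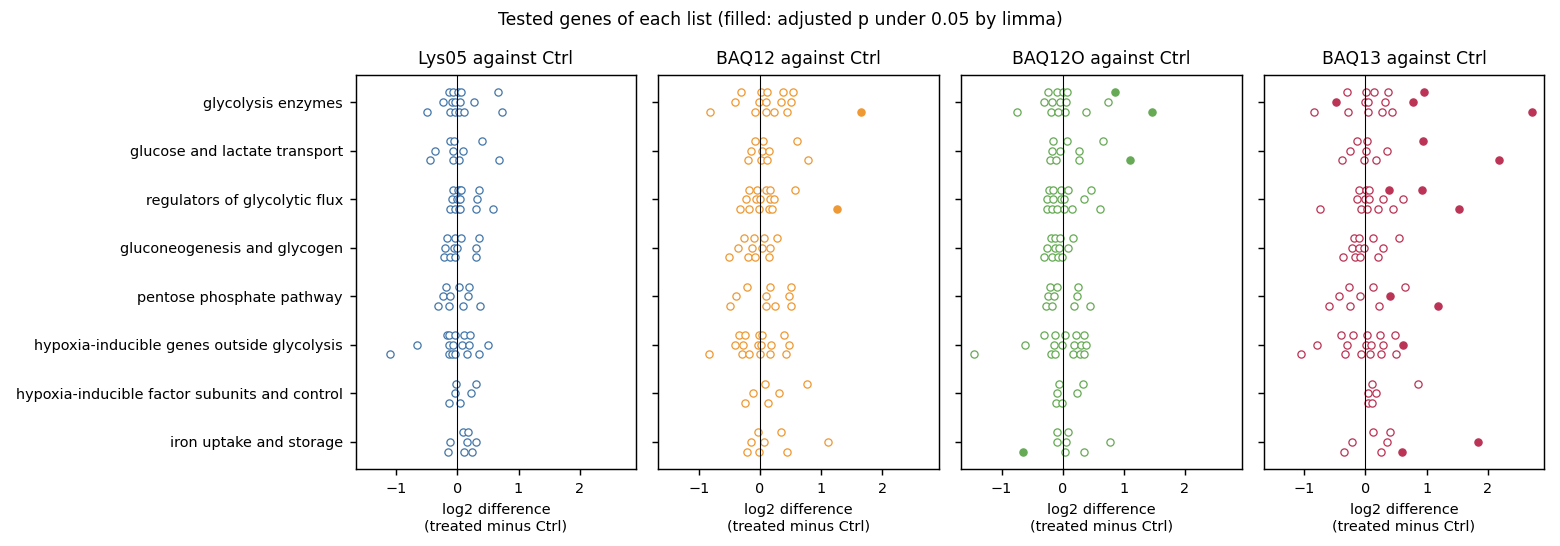
Log2 difference from Ctrl (horizontal axis) of every tested gene of 8 lists, 1 circle per gene and 1 panel per treatment, filled where the adjusted p by limma was under 0.05; vertical scatter within a list only separates the circles. The glycolysis row, members included, lies mainly near 0, with ALDOC as its rightmost circle at 1.66, 1.46 and 2.72 with BAQ12, BAQ12O and BAQ13.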

How the data were processed

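The authors deposited 1 table per library with a normalised expression signal per gene, that is, counts scaled by 1 size factor per library, for 60107 genes and 92 spike-ins at 0. The submitters' processing notes name STAR, HTSeq, DESeq2 and the builds GRCh38 and hg38, and the versions and annotation release are not given in the sources used here. All nonzero values were whole multiples of the smallest step of their library (tolerance 0.01 reads; 100% of values), from which the reads were recovered. Groups came from the titles. The labels do not say whether replicates were separate cultures.

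limma (3.58.1, eBayes with trend) was fitted to log2(value + 1) of all 15 libraries without covariates, after filterByExpr of edgeR (4.0.16, minimum count 10, minimum total 15), and p-values were Benjamini-Hochberg adjusted over 10495 genes. The alternatives were edgeR's quasi-likelihood test and DESeq2 (1.42.0) on the recovered reads, pseudocounts of 0.1 and 5, TMM and upper-quartile factors, other filters, only the 6 libraries compared, a replicate block and leaving out each library. Added after seeing the data were leaving out replicate 3 of BAQ12 with replicate 1 of BAQ13, and GC correction of each library, also with the block. The fits were tested on simulated data in which no library was made to stand apart, so that test does not cover this feature of the data. R 4.3.3 and Python 3.11.15 were used.

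The members and lists were chosen with earlier results of these data known. Named genes are the members, list genes past the threshold against Ctrl (at most 4 per list and comparison) and the 5 genes most correlated with ALDOC. LDHB, PGAM1 and EGLN2 were named outside this rule, after their values were seen. Gene coordinates and GC content came from GENCODE 29 (GRCh38), where 56531 of the listed identifiers matched, and promoters from RefSeq. Annotated pseudogenes of the members had at most 1 read, which cannot show whether reads shared by a member and a pseudogene were left uncounted. Intervals cover the spread between libraries.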

Additional observations from a re-analysis of the deposited data

How the results depend on the processing

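Members past an adjusted p of 0.05 by limma changed in number under some alternatives. With only the 6 libraries compared there were 1 with Lys05 (LDHA), 0 with BAQ12 and 4 with BAQ12O (ALDOC, LDHA, PGK1 and ENO1) against Ctrl. With at least 10 reads required in every library, which leaves out ALDOC, there were 1 with BAQ13 (LDHA) and 0 with BAQ12 or BAQ12O against Ctrl, 0 between BAQ13 and Lys05 and 0 between BAQ12O and BAQ13. Without replicate 3 of BAQ12 and replicate 1 of BAQ13 together there were 1 with Lys05 (LDHA) and 4 with BAQ12O (the genes just named) against Ctrl, 1 between BAQ13 and BAQ12 and 2 between BAQ12O and BAQ13 (ALDOC and ENO1). Of all 10628 genes tested in that fit, 239 were called between BAQ13 and BAQ12 and 534 between BAQ12O and BAQ13. By edgeR and by DESeq2, 1 member (ALDOC) passed between BAQ13 and BAQ12, where 72 and 76 of all 10495 genes did. Leaving out each library gave 2 to 4 members for BAQ13 and 0 to 2 for BAQ12O against Ctrl, 0 to 1 between BAQ13 and BAQ12, 1 to 3 between BAQ13 and Lys05 and 0 to 1 between BAQ12O and BAQ13. Over all genes tested, the calls in these comparisons, in the same order, were 320 to 1436, 74 to 526, 32 to 330, 152 to 811 and 72 to 389. Without replicate 3 of BAQ12, the 4 with BAQ13 were ALDOC, LDHA, ALDOA and PGK1.

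Deviations of same-numbered libraries from their group means correlated between groups at r from -0.492 to 0.200. With 3 libraries per group, and the libraries that stood apart among them, this cannot settle whether the numbers pair the libraries. With a replicate block, ALDOC between BAQ12O and BAQ13 had an adjusted p of 0.072, which left 0 members called there, as did the block with GC correction (0.064), and no other member call changed with the block.

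Differences near 0 changed sign. Without both libraries that stood apart, those with BAQ12 against Ctrl were -0.034 for GPI, -0.0044 for PFKL, -0.051 for PFKP, 0.034 for ENO1 and -0.15 for PKM, and ALDOC differed by 0.011 between BAQ12O and BAQ12. PKM with BAQ13 had -0.000877 with TMM factors, -0.019 with upper-quartile factors, -0.16 without both libraries, and -0.028 with GC correction, with or without the block. PKM with BAQ12O had 0.0019 by DESeq2 and 0.0049 with upper-quartile factors. Leaving out each library gave, for BAQ12 against Ctrl, -0.034 to 0.049 for GPI, -0.0044 to 0.42 for PFKL, -0.051 to 0.23 for PFKP, -0.083 to 0.039 for ENO1 and -0.15 to 0.24 for PKM. For BAQ13 it gave -0.049 to 0.064 for PFKP, -0.020 to 0.13 for ENO1 and -0.16 to 0.12 for PKM, for BAQ12O -0.0033 to 0.067 for GPI and -0.064 to 0.052 for PKM, for Lys05 -0.072 to 0.032 for ENO1, and between BAQ12O and BAQ12 -0.40 to 0.026 for ALDOC. With a pseudocount of 5, the log2 ratio of ALDOC to ALDOA was higher than in Ctrl by 0.996 with BAQ12 and 1.991 with BAQ13. The cause of these changes was not tested.

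Over all genes, limma called 25, 103, 606 and 155 with Lys05, BAQ12, BAQ13 and BAQ12O against Ctrl, and 115, 31, 947 and 871 with only the 6 libraries compared. It called 51, 137, 1436 and 526 without replicate 3 of BAQ12, 96, 222, 1252 and 970 without both libraries, and 370 with BAQ13 without its replicate 1. ALDOC with 9 to 13 reads in Ctrl and HK2 with 4 to 24 reads are limited by depth.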
